A study of Mus musculus with 12 samples.

Results

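The transcripts of mouse mitochondrial DNA (mtDNA) were followed in subcutaneous white adipose tissue (scWAT) of cold-exposed mice. The members were all genes whose symbol starts with mt-, which are 37 of the 55401 genes in the deposited count tables. They comprise 13 protein-coding genes, 2 ribosomal RNA (rRNA) genes and 22 transfer RNA (tRNA) genes. On the mtDNA sequence of 16299 bases, 28 of them lie on the plus strand and 9 on the minus strand, namely mt-Nd6 and 8 tRNA genes. After a filter on low counts 21 of the 37 were tested, made up of 13 of 13 protein-coding genes, 2 of 2 rRNA genes and 6 of 22 tRNA genes.

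RNA of whole scWAT was sequenced from female mice, 16 weeks old at the start, of 4 groups with 3 mice in each. Jmjd1a +/+ mice carried the normal gene. Jmjd1a HY/HY mice were homozygous for a histidine-to-tyrosine change, introduced with CRISPR/Cas9, that abolishes the demethylase activity of JMJD1A, an enzyme that removes methyl groups from lysine 9 of histone H3; the females came from a single mutant line, and the change is present in every tissue. All mice were caged singly and kept at 30°C for 1 week before a further week at 30°C, close to thermoneutrality, or at 8°C. The comparisons asked how cold changed the mtDNA-encoded transcripts in each genotype and how the genotypes differed at each temperature; those that use the same group share its 3 libraries. Replicate values below are in the order of the replicate numbers, which name separate libraries and do not pair them.

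Mitochondria keep a small genome that encodes a few subunits of the respiratory chain and the rRNAs and tRNAs that the mitochondrial ribosome needs to translate them. Each strand is transcribed as a long precursor by the RNA polymerase POLRMT, and the precursor is cut at the tRNAs into separate RNAs. Brown and beige adipocytes, which burn fuel for heat through UCP1, are rich in mitochondria, and scWAT of mice gains such cells during cold exposure. Whole tissue was sequenced, so more mitochondria-rich cells and more mtDNA-encoded RNA per cell cannot be told apart.

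The sequences shown here decide which strand and which genome a read pair can be assigned to. The ends of mt-Nd5 (chromosome MT:11742-13565, GRCm38.p6, plus strand) and mt-Nd6 (MT:13552-14070, minus strand) overlap by 14 bases. They are drawn from GENCODE transcripts, each 5′ to 3′ on its own strand, with the shared bases in capitals, and the capitals of one are the reverse complement of the other.
mt-Nd5, bases 1745 to 1824: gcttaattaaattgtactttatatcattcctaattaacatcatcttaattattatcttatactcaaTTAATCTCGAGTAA
mt-Nd6, bases 440 to 519: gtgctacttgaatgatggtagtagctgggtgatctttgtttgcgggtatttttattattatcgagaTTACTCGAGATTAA
The end of mt-Atp8 (MT:7766-7969, plus strand) is shown because its last 43 bases, in capitals, are also the start of mt-Atp6 (MT:7927-8607) on the same strand, where a read pair cannot be given to either gene.
mt-Atp8, bases 125 to 204: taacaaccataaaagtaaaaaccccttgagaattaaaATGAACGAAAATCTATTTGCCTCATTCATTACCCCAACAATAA

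Other stretches are repeated in the nuclear genome. In the mouse genome NCBIM37, chr1:24618374-24623023 holds 4650 bases that match mtDNA positions 6394 to 11042 in the opposite orientation. The build used for the files is mm10, so this position is that of NCBIM37 alone, while all 37 mtDNA genes have the same coordinates in both annotations. Of all 50-base windows of mtDNA, 35.8% were found in nuclear chromosomes. The copy begins within mt-Co1 (MT:5328-6872), at base 1067 of 1545, and the bases from there on are in capitals.
mt-Co1, bases 1027 to 1126: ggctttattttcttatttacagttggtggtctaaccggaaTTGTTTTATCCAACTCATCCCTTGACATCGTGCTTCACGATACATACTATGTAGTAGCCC
mt-Co2 (MT:7013-7696) lies wholly inside the copy without a difference, so all of its first bases are in capitals.
mt-Co2, bases 1 to 100: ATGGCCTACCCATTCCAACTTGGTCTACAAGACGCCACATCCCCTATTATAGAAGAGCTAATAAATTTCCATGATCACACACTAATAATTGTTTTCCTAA
mt-Nd3 (MT:9459-9806) differs from the copy at a single base, in capitals, near its start. Counted from 1 at the 5′ end, with the mtDNA base first and the base of the nuclear copy last, the change is T3C.
mt-Nd3, bases 1 to 100: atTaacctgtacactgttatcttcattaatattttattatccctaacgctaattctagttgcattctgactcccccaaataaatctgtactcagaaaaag

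The 12 libraries held 31870000 to 61070000 read pairs, of which 26.7 to 32.2% aligned to more than one place, and 13590000 to 26350000 pairs were counted in the sense direction of a gene. Values are counts per 1000000 counts (CPM) on library sizes scaled by the trimmed mean of M values (TMM). White adipocyte markers were present in all libraries, with summed levels of 13150 to 39480 CPM, and Ucp1 rose from 0.433 to 4.58 CPM in +/+ mice at 30°C to 5048 to 6055 CPM at 8°C, against 212 to 904 CPM in HY/HY mice at 8°C. Kdm3a, the gene of JMJD1A, stood at 35.7 to 61.7 CPM in all libraries, and a level cannot check a single base change. The library of +/+ replicate 2 at 30°C stood apart by skeletal muscle markers, at 1662 CPM in sum against 18.2 to 54.8 CPM in the other 11. The library of HY/HY replicate 3 at 30°C stood apart by its mtDNA-encoded transcripts and by white adipocyte markers of 37130 CPM against 20300 and 13150 CPM in the other 2 of its group, and 31.8% of its pairs aligned to more than one place against 26.7% and 27.4%. Values without these libraries are given beside results that rest on them. Mammary epithelium markers summed to 2047 to 3682 CPM in +/+ mice at 30°C and 1371 to 1513 CPM in +/+ mice at 8°C. In HY/HY mice they summed to 527 to 1466 CPM at 30°C, with replicate 3 the lowest, and 879 to 1295 CPM at 8°C. The part of these markers in the differences below was not tested.

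Counts of the genes inside the chromosome 1 copy were small and erratic. mt-Co2, mt-Atp8, mt-Atp6, mt-Co3 and mt-Nd4l had 100% of their 50-base windows in the nuclear genome and mt-Nd3 had 99%. They encode a subunit of cytochrome c oxidase (complex IV) in mt-Co2 and in mt-Co3, parts of ATP synthase (complex V) in mt-Atp6 and mt-Atp8, and subunits of NADH dehydrogenase (complex I) in mt-Nd3 and mt-Nd4l. A pair that fits both genomes is set aside as aligned to more than one place and is not counted. mt-Co2 had a median of 160 counts over the 12 libraries against 1000627 counts for mt-Co1.

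In 5 of these genes 1 or more libraries stood far above the median. mt-Co2 had 29516 counts in +/+ replicate 2 at 30°C and 27547 in HY/HY replicate 2 at 8°C, with a lowest count of 47. It also had 5136 counts in HY/HY replicate 3 at 30°C and 2833 in HY/HY replicate 1 at 8°C. mt-Nd3 had 1398 counts in +/+ replicate 3 at 8°C and no more than 19 in any other library. The most counts of mt-Atp6 (3640, in HY/HY replicate 1 at 30°C), mt-Co3 (2704, in +/+ replicate 3 at 30°C) and mt-Atp8 (340, in HY/HY replicate 3 at 30°C) each fell in a different library, while mt-Nd4l never passed 17 counts. These peaks were 8.10 to 184.5 times the gene's median count in the 5 genes, against 1.35 to 4.83 times in the other 9 rRNA and protein-coding genes. Those 9, of which mt-Co1 and mt-Nd4 have 51.1% and 62.2% of their windows in nuclear sequence and are undercounted, are mt-Rnr1, mt-Rnr2, mt-Nd1, mt-Nd2, mt-Co1, mt-Nd4, mt-Nd5, mt-Nd6 and mt-Cytb, and they carry the results below. Nuclear genes with the same letters are affected alike, and Gm10222, a copy of mt-Nd4l on chromosome 1, was listed at 1.30 to 3.17 CPM.

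**Figure D1:**
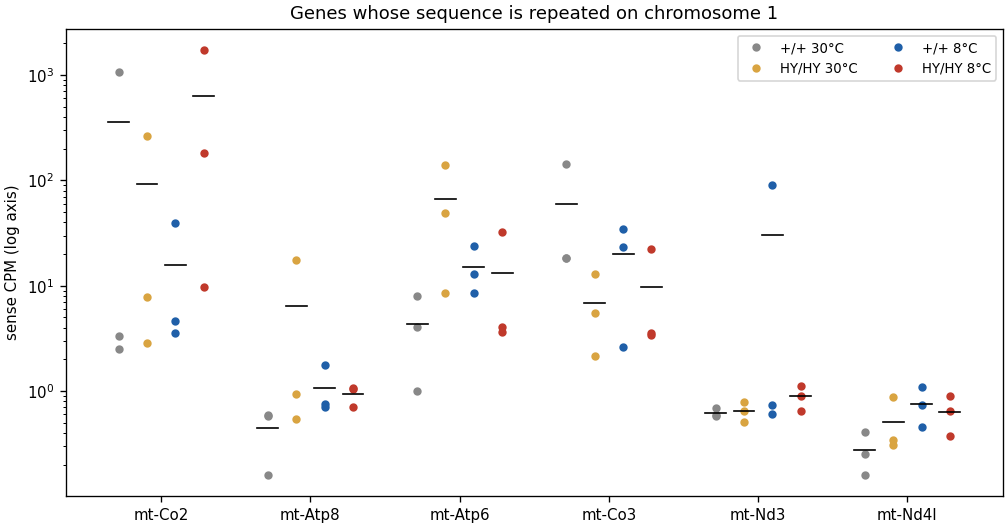
Sense CPM (log axis) of the 6 genes that lie wholly within the chromosome 1 copy, with a point per library, coloured by group, and a line at the group mean. A few libraries stand far above the rest, such as 1 of the 3 libraries from +/+ mice at 8°C for mt-Nd3, at 89.7 CPM, and the high libraries differ from gene to gene.

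Transfer RNAs were barely caught. Of the 22 tRNA genes, 7 had no count in any library, which at 3 counts allows levels of up to 0.103 to 0.244 CPM depending on the library, and the other 9 that failed the filter had at most 11 counts in a library. The 6 that passed were mt-Tq, mt-Tm, mt-Tw, mt-Ty, mt-Tt and mt-Tp, with levels of 0.0344 to 21.6 CPM. Read pairs on so short a gene can also reach into its neighbours, and a pair that overlaps another gene of the same strand was not counted.

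Levels of the mtDNA-encoded transcripts were high in all groups. They took up 12.7 ± 1.16% (SD, n = 3) of sense counts in +/+ mice at 30°C, 11.95 ± 4.18% in HY/HY mice at 30°C, 16.9 ± 1.01% in +/+ mice at 8°C and 12.5 ± 0.349% in HY/HY mice at 8°C. The spread of HY/HY mice at 30°C came from replicate 3, at 16.8% (95% Wilson interval 16.76 to 16.79%, counting error only) against 9.32% and 9.76%. By mean CPM over the 12 libraries mt-Co1 was the most abundant of all genes, mt-Cytb ranked 3rd, mt-Nd1 5th, mt-Nd2 7th, mt-Nd4 8th and mt-Nd5 10th, while mt-Rnr2 ranked 34th, mt-Rnr1 48th and mt-Nd6 283rd.

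Per kilobase of gene, the order in +/+ mice at 30°C ran from mt-Co1, the catalytic subunit of complex IV, at a mean of 31640 CPM per kb, and mt-Cytb, the mtDNA-encoded subunit of complex III, at 24300, through mt-Nd1 at 10500 and mt-Nd5 at 4827, to mt-Rnr1 at 588, mt-Rnr2 at 411 and mt-Nd6 at 275 CPM per kb. The rRNAs of the small (mt-Rnr1, 12S) and large (mt-Rnr2, 16S) mitochondrial ribosomal subunits are among the most abundant mtDNA-encoded RNAs in cells, and these libraries held little of them; whether RNA was selected by its poly(A) tail or rRNA was depleted is not given in the sources used here. Together the rRNAs made up 1.04 ± 0.205% of the sense counts on mtDNA in +/+ mice at 30°C. The levels below are therefore those of rRNA that entered the libraries, and differences in them may not be those of all rRNA. In +/+ mice at 8°C mt-Nd1 reached 27600 CPM per kb, beside 35810 for mt-Cytb and 45370 for mt-Co1, and mt-Rnr1 and mt-Rnr2 reached 4536 and 3088.

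**Figure D2:**
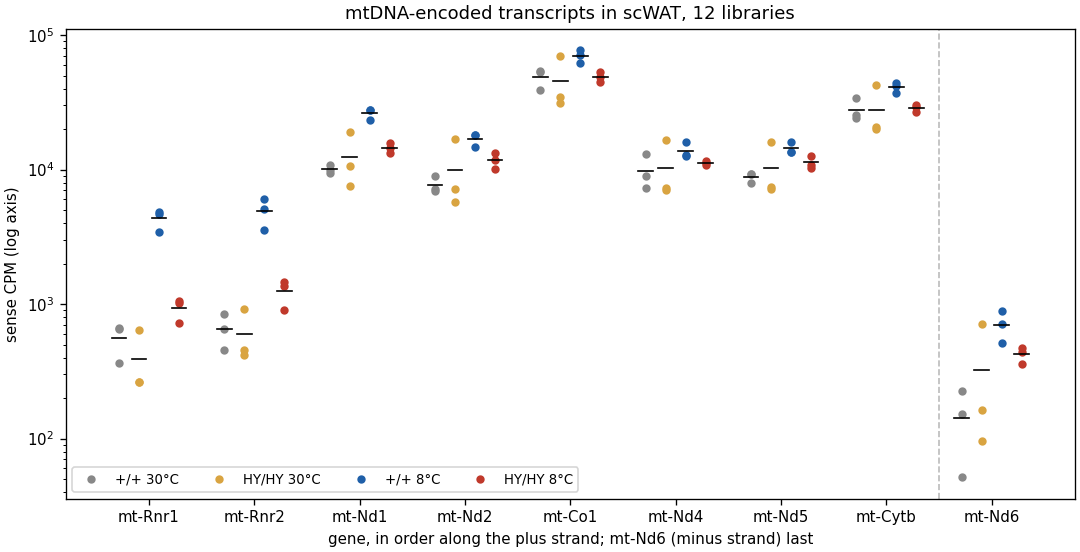
Sense CPM (log axis) of the 9 genes in each of the 12 libraries, in order along the plus strand with mt-Nd6, on the minus strand, last; points are libraries, coloured by group, and lines are group means. mt-Rnr1 and mt-Rnr2 lie highest in the 3 libraries from +/+ mice at 8°C, at 3458 to 6000 CPM, and 1 of the 3 libraries from HY/HY mice at 30°C lies above its group in each gene.

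In +/+ mice cold raised both rRNAs, mt-Nd1, mt-Nd2, mt-Nd6 and a pair of tRNA genes, while mt-Co1, mt-Cytb, mt-Nd4 and mt-Nd5 did not pass the test. Of the 21 genes tested, 8 were called (adjusted p below 0.05 in edgeR's quasi-likelihood test and a fold change above 1.5 or below 0.67) and all 8 were higher at 8°C, against 17.3% called and 10.3% called higher among the 16540 genes tested. In 14 of the 21, and in 8 of the 9 well-counted genes, all 3 libraries at 8°C lay above all 3 at 30°C, which held for 20.7% of all genes. The median log2 fold change was 1.13 over the 9 genes and 0.71 over their 7 protein-coding members, against -0.07 over all genes. The p-values set each difference against the spread between mice, with 3 mice a group. That spread was estimated from all 12 libraries in 1 model and in part shared across genes. Without any 1 of the +/+ libraries 4 to 7 genes were called, with 4 (mt-Rnr1, mt-Rnr2, mt-Nd1 and mt-Tt) without replicate 2 at 30°C. On library totals without TMM the calls over all genes turned from 1707 higher and 1147 lower to 1057 higher and 4144 lower and their median to -0.41, while 7 of the 21 mtDNA genes were called, all higher, and the 9 well-counted genes kept positive values.

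Of the 9 well-counted genes the rRNAs rose most. mt-Rnr1 stood at 655, 366 and 665 CPM in +/+ mice at 30°C, 264, 262 and 642 CPM in HY/HY mice at 30°C, 4833, 4704 and 3458 CPM in +/+ mice at 8°C and 1014, 1055 and 724 CPM in HY/HY mice at 8°C. mt-Rnr2 stood at 842, 456 and 651 CPM in +/+ mice at 30°C, 416, 453 and 917 CPM in HY/HY mice at 30°C, 6000, 5096 and 3558 CPM in +/+ mice at 8°C and 1363, 1462 and 904 CPM in HY/HY mice at 8°C. Libraries of +/+ mice at 8°C were the highest for both rRNAs and overlapped no other group. In +/+ mice cold raised mt-Rnr1 by a log2 fold change of 2.95 ± 0.38 (SE), or 7.71-fold (adjusted p = 2.87e-04), and mt-Rnr2 by 2.91 ± 0.37, or 7.52-fold (adjusted p = 2.44e-04). Without +/+ replicate 2 at 30°C these were 2.72 (adjusted p = 0.00196) and 2.71 (adjusted p = 0.00191). At 8°C the rRNAs made up 4.83 ± 1.29% of the sense counts on mtDNA in +/+ mice and 1.70 ± 0.460% in HY/HY mice.

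Subunits of complex I, the entry point of NADH electrons into the respiratory chain, fell into those that rose and those that did not pass. mt-Nd1 (MT:2751-3707), the first protein-coding gene after the rRNAs, stood at 10856, 9354 and 9926 CPM in +/+ mice at 30°C, 7582, 10697 and 18925 CPM in HY/HY mice at 30°C, 23510, 27847 and 27870 CPM in +/+ mice at 8°C and 14377, 13320 and 15670 CPM in HY/HY mice at 8°C. It rose by 1.40 ± 0.32, or 2.63-fold (adjusted p = 0.00881), with no overlap between the +/+ groups. mt-Nd2 (MT:3914-4951) stood at 8946, 6976 and 7228 CPM in +/+ mice at 30°C, 5780, 7140 and 16924 CPM in HY/HY mice at 30°C, 14702, 18109 and 18002 CPM in +/+ mice at 8°C and 11703, 10182 and 13317 CPM in HY/HY mice at 8°C. It rose by 1.13 ± 0.36, or 2.20-fold (adjusted p = 0.0401), but by 1.07 with an adjusted p of 0.114 without +/+ replicate 2 at 30°C. The call was lost without any 1 of the +/+ libraries, and without any 1 of the HY/HY libraries at 8°C.

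mt-Nd4 (MT:10167-11544) stood at 8918, 7281 and 13115 CPM in +/+ mice at 30°C, 7088, 7321 and 16525 CPM in HY/HY mice at 30°C, 12604, 15996 and 12744 CPM in +/+ mice at 8°C and 11251, 10877 and 11592 CPM in HY/HY mice at 8°C. Its +/+ groups overlapped, as replicate 3 at 30°C lay above 2 of the libraries at 8°C, and the difference was 0.50 ± 0.35 (adjusted p = 0.314). mt-Nd5 stood at 9220, 7964 and 9228 CPM in +/+ mice at 30°C, 7455, 7203 and 16058 CPM in HY/HY mice at 30°C, 13592, 15950 and 13571 CPM in +/+ mice at 8°C and 10841, 10357 and 12700 CPM in HY/HY mice at 8°C. All 3 libraries of +/+ mice at 8°C were above those at 30°C, and the difference of 0.71 ± 0.31 did not pass (adjusted p = 0.111).

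The mtDNA-encoded subunits of complexes III and IV, mt-Cytb and mt-Co1, did not pass either. mt-Cytb (MT:14145-15288) stood at 25307, 24094 and 33991 CPM in +/+ mice at 30°C, 19981, 20768 and 42419 CPM in HY/HY mice at 30°C, 36952, 44111 and 41845 CPM in +/+ mice at 8°C and 30136, 26715 and 28965 CPM in HY/HY mice at 8°C. mt-Co1 stood at 54118, 39377 and 53153 CPM in +/+ mice at 30°C, 31138, 34470 and 70039 CPM in HY/HY mice at 30°C, 61816, 77009 and 71484 CPM in +/+ mice at 8°C and 48547, 45012 and 52765 CPM in HY/HY mice at 8°C. In both genes every library of +/+ mice at 8°C lay above those at 30°C. The differences were 0.56 ± 0.33 for mt-Cytb (adjusted p = 0.239) and 0.52 ± 0.36 for mt-Co1 (adjusted p = 0.313).

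Fold changes in +/+ mice were largest for the rRNAs at the start of the plus strand, smaller for mt-Nd1 and mt-Nd2, and smaller again for mt-Co1, mt-Nd4, mt-Nd5 and mt-Cytb. Over the 8 plus-strand genes Spearman's rho between gene order and log2 fold change was -0.81, and it was -0.54 over the 6 without the rRNAs. With cold in HY/HY mice, where no mtDNA gene was called, rho was -0.88 and -0.71 in the same order. Within a comparison these genes share the same 6 libraries, and each value is a description. The ratio of mt-Nd1 to mt-Co1 counts, which does not depend on library size, was 0.201, 0.238 and 0.187 in +/+ mice at 30°C, 0.244, 0.310 and 0.270 in HY/HY mice at 30°C, 0.380, 0.362 and 0.390 in +/+ mice at 8°C and 0.296, 0.296 and 0.297 in HY/HY mice at 8°C. It was higher at 8°C in +/+ mice without overlap, by 0.86 on the log2 scale (two-sided exact permutation p = 0.1, the smallest that 3 against 3 can give; 0.2 adjusted over the 28 tests of 7 ratios in 4 comparisons), while in HY/HY mice the temperatures overlapped, with a difference of 0.12. At 8°C all HY/HY ratios lay below all +/+ ratios, and at 30°C all lay above. With both libraries that stand apart left out these orders were the same, and the difference with cold was 0.96 in +/+ and 0.11 in HY/HY mice. The ratio of mt-Rnr2 to mt-Nd1 counts was higher at 8°C without overlap in both genotypes. Its log2 difference was 1.53 in +/+ and 0.80 in HY/HY mice (exact permutation p = 0.1 each, 0.2 adjusted).

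The tRNA genes that were called were mt-Tt, the threonine tRNA next to mt-Cytb (MT:15289-15355), and mt-Tw, the tryptophan tRNA next to mt-Nd2 (MT:4950-5016). All windows of mt-Tw are also found in nuclear sequence, and its counts come from pairs that could be placed. mt-Tt stood at 4.99, 2.38 and 4.996 CPM in +/+ mice at 30°C, 1.82, 2.75 and 7.07 CPM in HY/HY mice at 30°C, 17.2, 16.7 and 21.6 CPM in +/+ mice at 8°C and 5.24, 6.69 and 5.93 CPM in HY/HY mice at 8°C, and rose by 2.18 ± 0.42 in +/+ mice (adjusted p = 0.00373), with no overlap. mt-Tw stood at 2.22, 1.48 and 1.22 CPM in +/+ mice at 30°C, 1.36, 1.03 and 2.70 CPM in HY/HY mice at 30°C, 4.53, 4.45 and 4.17 CPM in +/+ mice at 8°C and 1.55, 2.19 and 0.568 CPM in HY/HY mice at 8°C, and rose by 1.41 ± 0.43 (adjusted p = 0.0323). The fold change of mt-Tt was 4.53 beside 1.47 for the adjoining mt-Cytb. mt-Tq, mt-Tm, mt-Ty and mt-Tp, at 0.0344 to 12.2 CPM, were called in no comparison. The remaining call, mt-Nd3, rests on 1 library: its log2 fold change of 5.60 (adjusted p = 0.0199) became 0.12 (adjusted p = 0.882) without +/+ replicate 3 at 8°C.

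**Figure D3:**
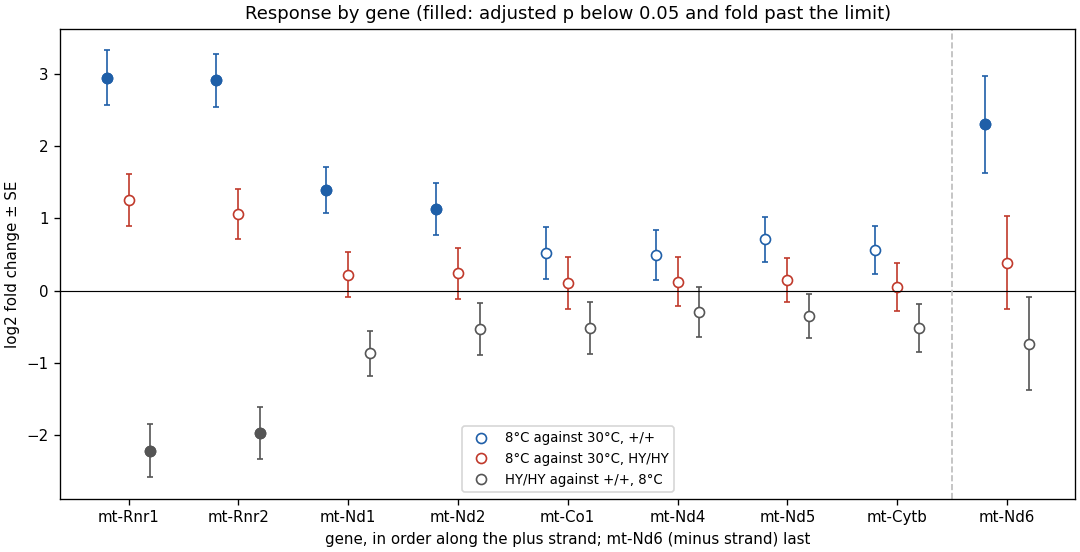
Log2 fold change with its SE (edgeR, 3 libraries a group) of the 9 genes for cold in +/+ mice, cold in HY/HY mice and HY/HY against +/+ at 8°C, in order along the plus strand with mt-Nd6 last; filled points passed the test and the fold limit. In +/+ mice the values run from 2.95 for mt-Rnr1 to 0.50 for mt-Nd4, those of HY/HY mice lie between 0 and 1.26, and the genotype difference at 8°C is negative in 9 of 9 genes.

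In HY/HY mice no mtDNA gene was called between 8°C and 30°C, where edgeR called 0.248% of all genes. Of the 21 genes, 4 had an unadjusted p below 0.05, and the share of all genes under that limit is not given here. They were mt-Rnr1, mt-Rnr2, and mt-Atp8 and mt-Atp6 inside the chromosome 1 copy. DESeq2 called 2, mt-Rnr1 and mt-Rnr2. The log2 differences were 1.26 ± 0.36 for mt-Rnr1 (adjusted p = 0.162), 1.06 ± 0.35 for mt-Rnr2 (adjusted p = 0.203), 0.22 for mt-Nd1 and 0.05 for mt-Cytb. Only mt-Rnr1 of the 21 genes had all libraries at 8°C above those at 30°C, and the share of all genes in that order is not given here. The result leaned on HY/HY replicate 3 at 30°C, which exceeded the other 2 of its group in each of the 9 genes. Without it 4 genes were called, namely mt-Rnr1 at 1.83 (adjusted p = 0.00997), mt-Rnr2 at 1.52 (adjusted p = 0.0254), mt-Tt at 1.38 (adjusted p = 0.0376) and mt-Nd2 at 0.86 (adjusted p = 0.0462), and mt-Nd1 was at 0.66 (adjusted p = 0.0942).

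At 8°C both rRNAs and mt-Tt were lower in HY/HY than in +/+ mice. All 3 HY/HY libraries lay below all 3 +/+ libraries in 13 of the 21 genes and in 9 of the 9 well-counted ones, against 19.0% of all genes. The median log2 difference of the 9 was -0.53, with 0.01 over all genes. Called were 3 of 21, all lower, against 5.93% called and 4.42% called lower among all genes. mt-Rnr1 was lower by a log2 fold change of -2.22 ± 0.37 (a ratio of 0.215, adjusted p = 0.00543), mt-Rnr2 by -1.97 ± 0.35 (adjusted p = 0.00765) and mt-Tt by -1.64 ± 0.41 (adjusted p = 0.0346). Among the 9 well-counted genes the other differences ran from -0.87 for mt-Nd1 (adjusted p = 0.121) over -0.53 for mt-Nd2, -0.52 for mt-Co1 and -0.52 for mt-Cytb to -0.29 for mt-Nd4, and none of these passed. Outside these 9, mt-Tw differed by -1.58 (adjusted p = 0.0526) and did not pass. Neither did mt-Nd3 at -5.06 and mt-Co2 at 5.33, both with erratic counts. The call of mt-Tt was lost without any 1 of the 6 libraries compared, and those of both rRNAs held. On library totals without TMM the split over all genes went from 249 higher and 731 lower to 535 and 480, and 3 of the 21 mtDNA genes were again called lower. HY/HY replicate 3 at 30°C entered this comparison only through the shared spread, and without it 5 genes were called, mt-Nd1 (adjusted p = 0.0164) and mt-Tw (adjusted p = 0.0261) in addition. Markers of other cells moved beside these genes: macrophage markers summed to 204 to 272 CPM in HY/HY and 118 to 133 CPM in +/+ mice at 8°C, with 2 of 5 called higher in HY/HY (Csf1r and Mrc1), and white adipocyte markers to 27380 to 39480 and 22310 to 29190 CPM, with 2 of 6 called higher (Lep and Retn). Of the skeletal muscle, lymph node and mammary gland markers 0 were called there. Their part in the differences was not tested.

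At 30°C no mtDNA gene was called between the genotypes, where edgeR called 1.00% of all genes. Of the 21 genes, 3 had an unadjusted p below 0.05, namely mt-Atp8, mt-Atp6 and mt-Co3, all with erratic counts. DESeq2 called 1, mt-Atp6. The groups did not overlap in mt-Atp6 (3.90, adjusted p = 0.0948) and mt-Co3 (-3.11, adjusted p = 0.169), both inside the chromosome 1 copy. For this comparison the shares of all genes without overlap and with an unadjusted p below 0.05 are not given here. The 9 well-counted genes had a median difference of 0.08, and all 9 overlapped. For mt-Rnr1, mt-Rnr2, mt-Co1, mt-Nd5 and mt-Cytb the overlap came from HY/HY replicate 3 alone, since the other 2 HY/HY libraries lay below all 3 +/+ ones. Without that library the differences were -1.09 for mt-Rnr1 (adjusted p = 0.115), -0.57 for mt-Co1 and -0.44 for mt-Cytb, and no well-counted gene was called. With both libraries that stand apart left out mt-Rnr1 was called lower in HY/HY, at -1.33 (adjusted p = 0.0457), as were 2 antisense rows, mt-Tp and mt-Ty.

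Whether the cold response itself differed between genotypes was tested as an interaction, the response of HY/HY minus that of +/+. No mtDNA gene was called, where edgeR called 2.24% of all genes. An unadjusted p below 0.05 was found in 9 of 21, and the share of all genes under that limit is not given here. Among the 9 were mt-Co2, mt-Atp8, mt-Atp6 and mt-Nd3, whose counts inside the chromosome 1 copy were erratic. DESeq2 called 3, mt-Rnr1, mt-Rnr2 and mt-Nd1. The differences were -1.85 ± 0.49 for mt-Rnr2 (adjusted p = 0.0795), -1.69 ± 0.50 for mt-Rnr1 (adjusted p = 0.121), -1.17 for mt-Nd1, -0.57 for mt-Nd5, -0.51 for mt-Cytb and -0.41 for mt-Co1. Without HY/HY replicate 3 at 30°C they were -1.40 for mt-Rnr2 (adjusted p = 0.112), -1.12 for mt-Rnr1 (adjusted p = 0.16), -0.74 for mt-Nd1, -0.09 for mt-Nd5, -0.07 for mt-Cytb and 0.05 for mt-Co1. For mt-Nd5, mt-Cytb and mt-Co1 the difference in response was thus near 0 without that 1 library. Beside these levels, the summed thermogenic adipocyte markers were 8269 to 9159 CPM in +/+ and 508 to 1637 CPM in HY/HY mice at 8°C, and 60.5 to 223 CPM at 30°C; their part in the differences was not tested.

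Read pairs from the minus-strand transcript were few. mt-Nd6, a complex I subunit and the single protein-coding gene of that strand, stood at 225, 151 and 51.6 CPM in +/+ mice at 30°C, 95.3, 164 and 710 CPM in HY/HY mice at 30°C, 891, 714 and 510 CPM in +/+ mice at 8°C and 357, 439 and 472 CPM in HY/HY mice at 8°C. It varied more than any plus-strand gene of the 9 among mice at 30°C, from 51.6 to 710 CPM, and HY/HY replicate 3 was the highest there. In +/+ mice cold raised it by a log2 fold change of 2.30 ± 0.67, or 4.94-fold (adjusted p = 0.0282), without overlap. Without +/+ replicate 2 at 30°C the value was 2.35 with an adjusted p of 0.078. The call was also lost without +/+ replicate 3 at 30°C or replicate 1 or 2 at 8°C. In HY/HY mice the difference was 0.39 ± 0.64 (adjusted p = 0.819), and 1.70 without replicate 3 at 30°C (adjusted p = 0.0717). The ratio of mt-Nd6 to mt-Nd5 counts was 1.64 ± 0.971% in +/+ and 2.66 ± 1.61% in HY/HY mice at 30°C, against 4.93 ± 1.45% in +/+ and 3.75 ± 0.472% in HY/HY mice at 8°C. HY/HY replicate 3 at 30°C stood at 4.42% and the other 2 at 1.28% and 2.28%, so the HY/HY temperatures overlapped only through it.

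The count tables also hold pairs in the antisense direction of each gene. For a plus-strand gene these come from the minus strand, or from plus-strand pairs whose strand was wrongly marked. Of the 37 antisense rows 19 passed the filter. Opposite mt-Nd5, which ends where mt-Nd6 ends, they stood at 322, 158 and 75.2 CPM in +/+ mice at 30°C, 96.8, 217 and 669 CPM in HY/HY mice at 30°C, 943, 874 and 579 CPM in +/+ mice at 8°C and 391.6, 488 and 503 CPM in HY/HY mice at 8°C. They ran at 0.942 to 1.46 times the sense counts of mt-Nd6 in the same library and made up 0.808 to 6.49% of the pairs on mt-Nd5. A minus-strand pair over the 14 bases that mt-Nd5 and mt-Nd6 share counts in both, so these counts are not independent. On the other plus-strand genes of the 9 the antisense share was 0.123 to 0.255% on mt-Cytb, 0.0603 to 0.460% on mt-Nd4, 0.0302 to 0.106% on mt-Co1, 0.130 to 0.400% on mt-Nd2, 0.0594 to 0.143% on mt-Nd1, 0.0973 to 0.933% on mt-Rnr2 and 0.0278 to 0.262% on mt-Rnr1. The 200 most abundant nuclear genes had a median antisense share of 0.0309 to 0.0752%, and the shares on mt-Nd4, mt-Co1, mt-Nd1 and mt-Rnr1 reached down to that range. The part of imperfect strand marking in them was not tested.

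Cold raised antisense counts in +/+ mice in 8 of 19 rows, where 17.3% of all rows were called. They were those of mt-Rnr1 (3.15, adjusted p = 0.00653), mt-Nd5 (2.11, 0.0306), mt-Nd1 (1.74, 0.0125), mt-Nd4 (1.64, 0.046), mt-Nd2 (1.59, 0.0369), mt-Tp (1.14, 0.0249), mt-Cytb (1.01, 0.0352) and mt-Tc, each pair giving the log2 fold change and the adjusted p. The value of mt-Tc, 5.81, rests on +/+ replicate 2 at 8°C and was 1.49 (adjusted p = 0.189) without it. Only 1 of the 8, mt-Rnr1, stayed called without +/+ replicate 2 at 30°C, and its antisense levels were at most 5.65 CPM. Its sense counts rose by a similar 2.95. The mean antisense share on mt-Rnr1 in +/+ mice was 0.0663% at 30°C and 0.0722% at 8°C, against 0.0423% and 0.0506% for the 200 nuclear genes. The part of wrongly marked sense pairs in this rise was not tested. Without +/+ replicate 3 at 30°C or any 1 of the +/+ libraries at 8°C, 3 or 4 rows were called. In HY/HY mice 0 of 19 rows were called by edgeR or DESeq2, and 0 had an unadjusted p below 0.05. Without HY/HY replicate 3 at 30°C 1 row was called there, mt-Tp.

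**Figure D4:**
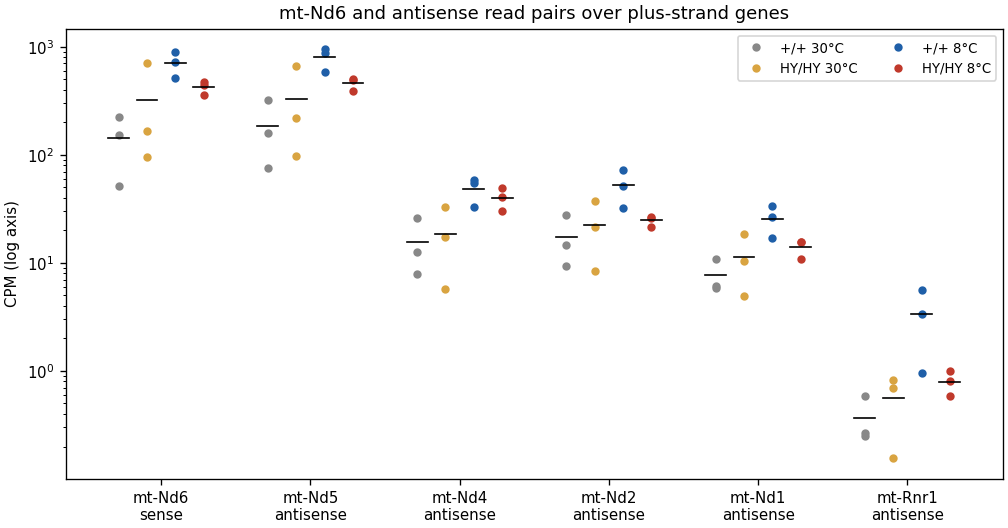
CPM (log axis) of mt-Nd6 in its own direction and of antisense pairs over plus-strand genes, with a point per library, coloured by group, and lines at group means. mt-Nd6 and the pairs opposite mt-Nd5 move together from library to library, with a ratio of 0.942 to 1.46, and the pairs opposite mt-Nd4, mt-Nd2 and mt-Nd1 lie well below them. A pair over the bases that mt-Nd5 and mt-Nd6 share counts in both.

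For minus-strand genes the antisense direction reads the plus strand. Opposite mt-Nd6, between mt-Nd5 and mt-Cytb, plus-strand pairs stood at 3279, 3416 and 3968 CPM in +/+ mice at 30°C, 3207, 2652 and 7128 CPM in HY/HY mice at 30°C, 5102, 7115 and 5905 CPM in +/+ mice at 8°C and 3875, 3776 and 4613 CPM in HY/HY mice at 8°C. They made up 85.1 to 98.7% of the pairs on mt-Nd6 and 35.6 to 44.6% of the mt-Nd5 sense counts. Counts per gene do not show how far beyond the 14 shared bases these pairs reach. A pair that spans both genes counts as sense for mt-Nd5 and antisense for mt-Nd6. Plus-strand pairs opposite mt-Tp, the proline tRNA just past mt-Cytb and mt-Tt (MT:15356-15422), stood at 266, 171 and 246 CPM in +/+ mice at 30°C, 120, 135 and 325 CPM in HY/HY mice at 30°C, 444, 545 and 510 CPM in +/+ mice at 8°C and 260, 232 and 283 CPM in HY/HY mice at 8°C. As a share of mt-Cytb counts they were 0.828 ± 0.193% in +/+ mice at 30°C, 0.671 ± 0.0857% in HY/HY mice at 30°C, 1.22 ± 0.0170% in +/+ mice at 8°C and 0.903 ± 0.0645% in HY/HY mice at 8°C, with no overlap between temperatures in either genotype or between genotypes at 8°C (exact permutation p = 0.1 each, 0.2 adjusted). With both libraries that stand apart left out the genotypes did not overlap at 30°C either, with a log2 difference of -0.48.

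Plus-strand pairs opposite mt-Ts1 were lower in HY/HY than in +/+ mice at 8°C. mt-Ts1 is a serine tRNA that meets the end of mt-Co1 (MT:6870-6938, minus strand), so a plus-strand pair there can also overlap mt-Co1. They stood at 55.8, 67.6 and 109 CPM in +/+ mice at 30°C, 22.2, 28.2 and 43.1 CPM in HY/HY mice at 30°C, 64.3, 138 and 127 CPM in +/+ mice at 8°C and 36.6, 44.7 and 52.7 CPM in HY/HY mice at 8°C. At 8°C all HY/HY libraries lay below all +/+ libraries, with a log2 difference of -1.30 ± 0.33 (adjusted p = 0.036), and at 30°C likewise with -1.32 ± 0.33 (adjusted p = 0.0741, not past the threshold; called by DESeq2). The call at 8°C was lost without any 1 of the HY/HY libraries or without +/+ replicate 2 or 3 at 8°C. It was 1 of 2 antisense rows called between genotypes at 8°C, where 5.88% of all rows were called; the other, mt-Tc at -5.94, rests on the same single library as above. As a share of mt-Co1 counts the pairs were 0.160 ± 0.0522% in +/+ and 0.0715 ± 0.0102% in HY/HY mice at 30°C. At 8°C they were 0.154 ± 0.0430% and 0.0915 ± 0.0140% in the same order. The genotypes did not overlap at either temperature, narrowly at 8°C (0.0999% against 0.104%), with an exact permutation p of 0.1 at each, 0.2 adjusted. The log2 difference of the share at 30°C was -0.93 with both libraries that stand apart left out and -1.12 with all. mt-Ts1 itself lies within the chromosome 1 copy, and its counts come from pairs that could be placed.

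The nuclear genes that make and process mtDNA-encoded RNA moved in part. Of 36 such factors, all tested, 17 rose with cold in +/+ mice and 0 fell (median log2 fold change 0.49), beside 10.3% of all genes called higher. Cold called 0 of them in HY/HY mice, beside 0.248% of all genes. Polrmt, the mitochondrial RNA polymerase, rose by 0.80 (adjusted p = 4.52e-04), from 23.3 to 25.4 CPM at 30°C to 38.3 to 45.0 CPM at 8°C, and stood at 29.7 to 31.3 CPM in HY/HY mice at 8°C. Its partners Tfb2m (0.93, adjusted p = 0.00208), which opens the promoter, and Tefm (0.70, 0.0219), an elongation factor, rose too, while Tfam, which packs mtDNA and recruits the polymerase, differed by 0.36 (adjusted p = 0.00867), under the fold limit.

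Lrpprc and Slirp, which together bind and stabilise mitochondrial mRNAs, rose by 1.14 (adjusted p = 2.79e-04) and 0.69 (adjusted p = 0.00207) in +/+ mice. Between genotypes at 8°C 5 of the 36 were called, all lower in HY/HY, beside 4.42% of all genes called lower: Lrpprc at -0.62 (adjusted p = 0.0257), Fastk at -0.94 (0.00341), Fastkd1 at -0.70 (0.00721), Tbrg4 at -0.75 (0.0123) and Ptcd2 at -0.59 (0.0219). Fastk, Fastkd1 and Tbrg4 belong to the FASTK family of mitochondrial RNA-binding proteins, and Ptcd2 acts on mt-Cytb RNA. The interaction was called for 2, beside 2.24% of all genes, Fastk at -0.99 (adjusted p = 0.0304) and Fastkd1 at -0.90 (adjusted p = 0.0271). At 30°C 0 of the 36 were called between genotypes, beside 1.00% of all genes.

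The nuclear-encoded subunits of the same respiratory complexes rose with cold in nearly every member. In +/+ mice cold raised 35 of 36 nuclear subunits of complex I tested (median log2 fold change 1.48), 9 of 9 of complex III (1.93), 11 of 11 of complex IV (1.45) and 11 of 15 of complex V (1.32), beside 10.3% of all genes called higher. In HY/HY mice cold called 0 in each of the 4 lists, with medians of 0.31 to 0.57. Between genotypes at 8°C 33 of 36, 9 of 9, 11 of 11 and 10 of 15 were called lower in HY/HY, beside 4.42% of all genes, with medians of -0.996, -1.11, -1.06 and -0.80, and the interaction was called lower for 22, 7, 4 and 9.

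Relative to the nuclear subunits of their own complex, 4 of 7 mtDNA-encoded subunits were lower at 8°C than at 30°C in +/+ mice without overlap. The log2 level of a gene minus the mean log2 level of the nuclear subunits changed by -1.27 for mt-Cytb, -1.07 for mt-Co1, -0.93 for mt-Nd4 and -0.76 for mt-Nd5, the 4 without overlap. The changes were -0.33 for mt-Nd2 and -0.07 for mt-Nd1, where the libraries overlapped, and 1.05 for mt-Nd6, also with overlap. An unchanged gene would also fall on this scale, because nuclear subunits of complexes I, III and IV rose by medians of 1.45 to 1.93. The median log2 fold change over all genes was -0.07, and the share of all genes without overlap on this scale is not given here. In HY/HY mice mt-Cytb changed by -0.40 without overlap, and the other 6 genes overlapped. Between genotypes at 8°C these nuclear subunits had medians of -0.996 to -1.11, so an unchanged gene would lie higher in HY/HY mice. At 8°C the relative level was higher in HY/HY than in +/+ mice without overlap for mt-Nd4 (0.69), mt-Nd5 (0.63), mt-Cytb (0.61), mt-Co1 (0.59) and mt-Nd2 (0.45). With 3 against 3 the exact permutation p is 0.1 for each of these differences without overlap, and 0.28 adjusted over the 28 tests, so none can pass on its own. With both libraries that stand apart left out the 4 genes of +/+ mice changed by -0.77 to -1.29, again without overlap. Then mt-Cytb changed in HY/HY mice by -0.21, still without overlap, and mt-Nd2, mt-Nd4 and mt-Nd6 lay above without overlap, by 0.40, 0.18 and 1.28. At 30°C mt-Nd4, mt-Cytb and mt-Co1 then lay lower in HY/HY than in +/+ mice without overlap, by -0.55, -0.48 and -0.60, where all 12 libraries gave overlap.

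**Figure D5:**
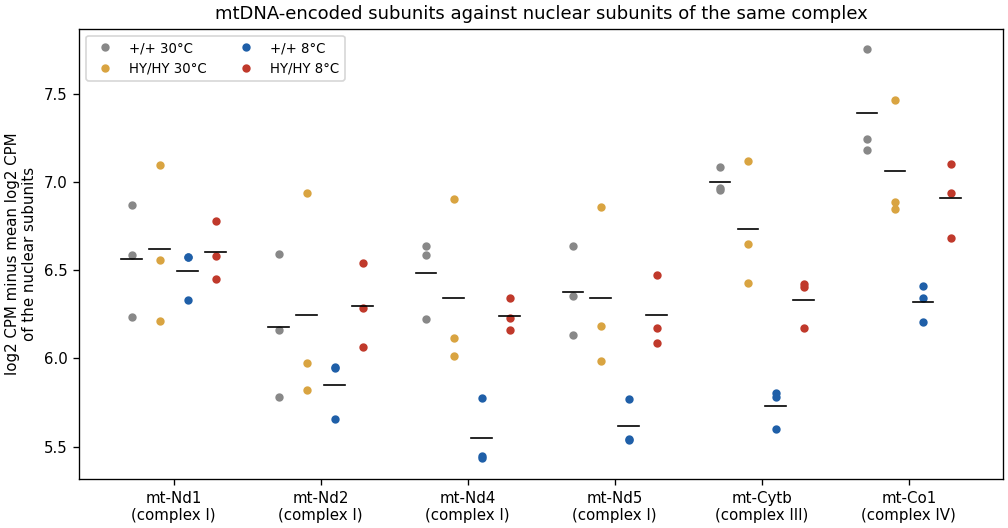
Log2 CPM of 6 mtDNA-encoded subunits minus the mean log2 CPM of the nuclear subunits of the same complex, with a point per library, coloured by group, and lines at group means. In +/+ mice the libraries at 8°C lie below those at 30°C for mt-Nd4, mt-Nd5, mt-Cytb and mt-Co1, with mean changes of -0.76 to -1.27, and those of mt-Nd1 overlap.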

How the data were processed

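Total RNA of scWAT was made into TruSeq libraries and sequenced as read pairs. Per the study's methods, the authors checked reads with FastQC, trimmed them with fastp and aligned them with STAR to mm10; FPKM from StringTie with a GENCODE annotation were not used here. The deposited files hold raw counts of read pairs per gene, over both strands and for each strand apart, in the layout of STAR's gene counts. The strand column with most counts was taken as sense, and 4 rows per library that name no gene were left out.

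Samples were grouped by the labels. Sense counts of all genes passing edgeR's filter were fitted in 1 model with a mean per group (edgeR 4.0.16, R 4.3.3, quasi-likelihood test, TMM scaling, Benjamini-Hochberg adjustment over 16540 genes), and antisense counts of mtDNA genes were added as rows of their own (16559 rows). Genes were called at an adjusted p below 0.05 and a ratio of group levels over 1.5 or under 0.67, with no such limit for the interaction. Ratios and differences from nuclear subunits were tested with two-sided exact permutation tests. Named were all mt- genes, Kdm3a, Ucp1, nuclear copies, and of the nuclear factors 6 preset genes and those called at 8°C or in the interaction. The members and lists were chosen with earlier results of these data known. Symbols came from RefSeq (32589 gene IDs matched; 36 of 38 complex I subunits), and sequences from GENCODE transcripts and the NCBIM37 genome. No 2 libraries were alike enough to be the same library deposited again.

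Alternatives were DESeq2 1.42.0, other scalings and filters, no fold limit, both strands together, only the libraries compared, a replicate block and leaving out each library. Leaving out both libraries that stand apart was added after seeing the data. Sense totals of 13590000 to 26350000 pairs make counting error small beside the spread between mice for genes above a few CPM. The fit was tested on simulated counts.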

Additional observations from a re-analysis of the deposited data

How the results depend on the processing

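The calls of mt-Rnr1, mt-Rnr2, mt-Nd1 and mt-Tt with cold in +/+ mice held in all alternatives that tested them (highest adjusted p 0.00212, 0.00191, 0.0352 and 0.0177; mt-Tt was not tested with both strands counted together), as did those of mt-Rnr1 and mt-Rnr2 between genotypes at 8°C (highest 0.0399 and 0.0484). mt-Nd2 lost its call with cold in +/+ mice in 9 of 21 alternatives, mt-Tw in 6 of 19 and mt-Nd6 in 5 of 21. Counts of mtDNA genes called moved as follows. DESeq2 called 2 sense genes for cold in HY/HY, 5 for genotype at 8°C, 1 for genotype at 30°C and 3 for the interaction, and 1 antisense row for genotype at 30°C. Library totals without TMM called 5 antisense rows for cold in +/+. With no filter 5, 2 and 2 sense genes were called for genotype at 8°C, at 30°C and the interaction, and 4 and 1 antisense rows for genotype at 8°C and 30°C. A minimum of 10 counts in every library left 1 antisense row for genotype at 8°C. Fits of only the libraries compared called 6 sense genes and 10 antisense rows for genotype at 8°C. With both libraries that stand apart left out, 4, 6 and 1 sense genes and 3, 6 and 2 antisense rows were called for cold in HY/HY, genotype at 8°C and genotype at 30°C, and mt-Tq antisense in HY/HY turned from -0.07 to 1.14. Leaving out 1 library at a time gave 4 to 11 sense genes and 1 to 12 antisense rows for cold in +/+, 0 to 4 and 0 to 1 for cold in HY/HY, 2 to 5 and 0 to 5 for genotype at 8°C, 0 to 1 and 0 to 0 for genotype at 30°C, and 0 to 1 and 0 to 0 for the interaction. The lowest counts for cold in +/+ came without its replicate 2 at 30°C, and the highest for cold in both genotypes and for genotype at 8°C without HY/HY replicate 3 at 30°C. The cause of these shifts was not tested.

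Groups share replicate numbers in the labels, but deviations of same-numbered libraries correlated at -0.069 to 0.346 and nothing else ties them, so the numbers were not taken as pairs. A replicate block called 8, 0, 3, 1 and 0 sense genes for cold in +/+, cold in HY/HY, genotype at 8°C, genotype at 30°C and the interaction, and 8, 0, 1, 1 and 0 antisense rows.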
